A study of Mus musculus with 6 samples.

Results

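Neurogenic basic helix-loop-helix (bHLH) genes encode the transcription factors that push dividing neural progenitors to leave the cell cycle and become neurons. The 8 genes described here were chosen by name: the neurogenins Neurog1 and Neurog2, the NeuroD genes Neurod1, Neurod2, Neurod4 and Neurod6, and the Nhlh genes Nhlh1 and Nhlh2. All 8 were found, by Ensembl identifier, among the 26852 genes of the RNA-sequencing table of dissected E14.5 mouse midbrains. The Lmx1b cKO group was Lmx1b fl/fl;Pitx3-Cre and the control group Lmx1b wt/wt;Pitx3-Cre, both on a C57Bl/6 background (C57BL/6J in the methods). Each group had 3 libraries, and each library held RNA of 2 pooled embryos from 4 litters in all. Both genotypes carried Cre from the Pitx3 locus on 1 allele, so the controls had the same Pitx3-Cre allele as the cKO. The paper counts that allele as a lost Pitx3 allele. Pitx3 is expressed in the dopamine neurons of the ventral midbrain, so Cre acts in a small part of the cells of a midbrain dissection. The paper places the start of this Cre activity shortly before E14.5, in cells that no longer divide.

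In the developing brain, neurogenins act early, in progenitors that are about to divide for the last time or have just done so. They switch on NeuroD and Nhlh genes in the newborn neuron, and they raise Notch ligands, which hold neighbouring cells in the progenitor state through Hes repressors. In the ventral midbrain, Neurog2 is known to be needed for the normal formation of dopamine neurons from their progenitors, and Neurod6 marks a subset of the mature dopamine neurons. bHLH factors bind DNA as dimers with E proteins, and Id proteins block them by taking up the E proteins.

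The 8 genes share a bHLH domain. The coding sequence of a part of it, which starts inside the basic region and stops inside the second helix, was read from the GENCODE transcripts of GRCm38, 135 bases or 45 codons for each gene, and is shown because it shows how far the members differ there. Capitals mark the 50 bases that are the same in all 8 genes.
Neurog1: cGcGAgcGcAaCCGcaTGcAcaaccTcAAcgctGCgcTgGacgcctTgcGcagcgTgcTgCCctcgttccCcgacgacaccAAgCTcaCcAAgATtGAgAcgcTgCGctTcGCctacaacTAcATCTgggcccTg
Neurog2: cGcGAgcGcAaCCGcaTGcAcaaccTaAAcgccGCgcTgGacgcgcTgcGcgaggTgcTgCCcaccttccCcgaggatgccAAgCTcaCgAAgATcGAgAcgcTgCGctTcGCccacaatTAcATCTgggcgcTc
Neurod1: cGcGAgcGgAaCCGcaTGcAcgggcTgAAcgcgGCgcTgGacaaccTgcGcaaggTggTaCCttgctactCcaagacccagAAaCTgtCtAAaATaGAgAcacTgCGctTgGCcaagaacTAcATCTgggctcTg
Neurod2: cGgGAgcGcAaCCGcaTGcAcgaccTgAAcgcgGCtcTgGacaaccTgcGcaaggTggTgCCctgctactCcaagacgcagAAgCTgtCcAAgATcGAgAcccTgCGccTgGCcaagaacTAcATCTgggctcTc
Neurod4: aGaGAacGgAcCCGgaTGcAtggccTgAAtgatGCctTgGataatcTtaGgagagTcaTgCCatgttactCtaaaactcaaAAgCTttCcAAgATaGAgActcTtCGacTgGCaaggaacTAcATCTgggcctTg
Neurod6: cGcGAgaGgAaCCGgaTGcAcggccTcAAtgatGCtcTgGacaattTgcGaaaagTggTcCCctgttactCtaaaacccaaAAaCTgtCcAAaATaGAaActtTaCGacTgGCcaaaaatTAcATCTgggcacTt
Nhlh1: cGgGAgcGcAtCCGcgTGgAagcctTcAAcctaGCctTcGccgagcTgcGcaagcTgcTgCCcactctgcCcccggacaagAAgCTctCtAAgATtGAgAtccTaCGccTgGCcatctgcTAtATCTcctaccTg
Nhlh2: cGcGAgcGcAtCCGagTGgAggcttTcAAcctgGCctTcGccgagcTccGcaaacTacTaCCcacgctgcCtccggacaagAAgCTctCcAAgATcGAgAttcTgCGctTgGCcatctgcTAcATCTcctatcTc
Neurog1 and Neurog2 shared 86.7% of these bases, Neurod1 and Neurod2 88.9%, and Nhlh1 and Nhlh2 85.9%. The least alike were Neurod4 and Nhlh2, with 52.6%. Across the whole coding sequences, the longest run of identical bases was 26 in Neurog1 and Neurog2, 25 in Neurod1 and Neurod2, and 20 in Nhlh1 and Nhlh2.

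The deposited table gives only the mean of the cKO libraries and the mean of the control libraries for each gene, in read counts divided by the size factor of the library (normalized counts). The whole-number reads of the single libraries behind these means could be recovered for 26355 genes (98.1%), among them all 8 bHLH genes. A recovered library has a genotype but cannot be tied to a sample number, so libraries are named a, b and c within a genotype, by falling size factor. Recovered reads per library lay between 20629683 and 25051860. Lmx1b itself does not check the labels. It had 1257, 1401 and 1455 normalized counts in cKO libraries a, b and c and 1368, 1352 and 1474 in the controls (exact permutation test, two-sided, p = 0.8). With 3 libraries against 3, that test cannot go below 0.1. Each direction below is therefore that of the libraries labelled cKO against those labelled control. The midbrain marker Otx2 was present at 1613 to 1863 normalized counts in all libraries. The forebrain marker Nkx2-1 was present too, at 360 to 1249, and mesenchyme genes were high in cKO c and, less so, in cKO a. Other genes, 7.67% of all genes and among them Aldh1a1, En1 and En2, did differ between the labelled groups without overlap. In bulk tissue, fewer cells of a type and less RNA per cell cannot be told apart. Which litters each pool drew on is not given in the sources used here, and p-values measure the spread between these 6 libraries.

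No difference between the genotypes passed the test for any of the 8 bHLH genes. In limma, 0 of 8 had an adjusted p-value under 0.05 (all adjusted p = 1.00), as did 0% of the 16680 genes tested. At an unadjusted p-value under 0.05, 0 of 8 passed, where 2.79% of all genes did (466 genes). Limma without voom weights (limma-trend) also gave 0 adjusted calls, with 477 genes and none of the 8 at an unadjusted p-value under 0.05. The cKO and control libraries overlapped for all 8 genes, whereas 7.67% of all genes did not overlap. On the log2 scale, 4 genes were lower and 4 higher in the cKO, beside 50% of all genes lower. Their median difference was -0.011, against -1.33e-05 over all genes tested. By library, control a was the highest for 6 of the 8 genes.

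**Figure D1:**
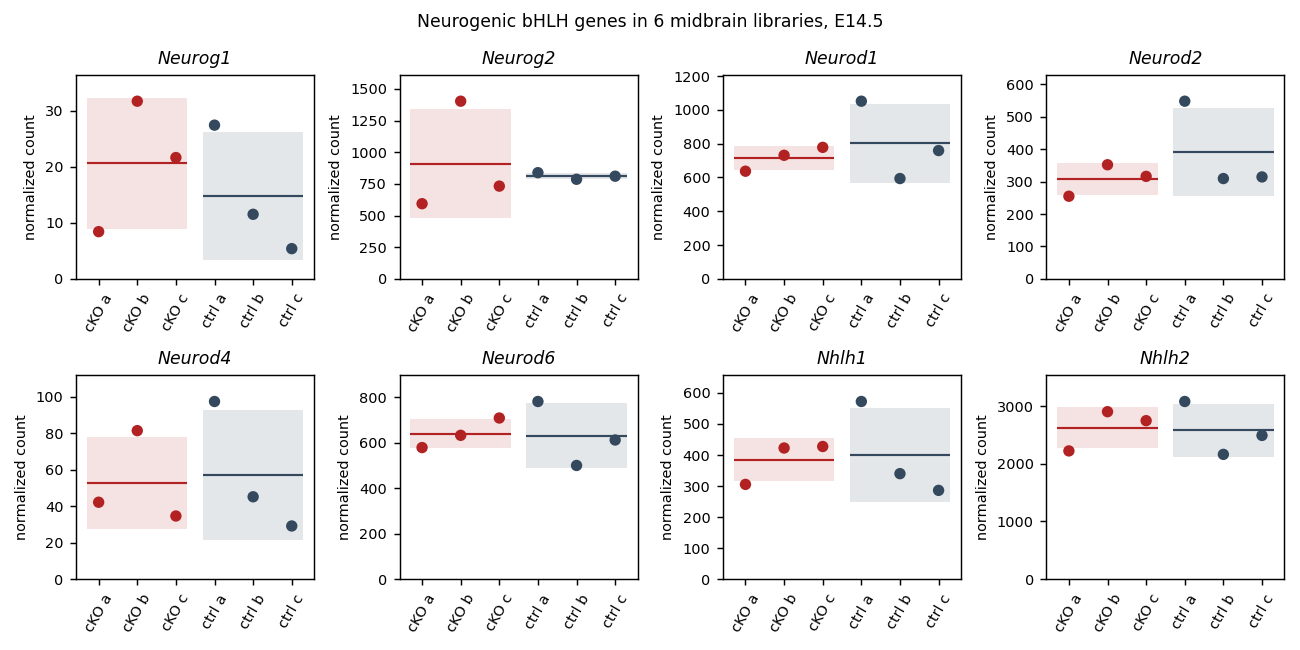
Normalized count of each neurogenic bHLH gene (vertical axes, separate scales from 0) in the 3 cKO libraries (red) and the 3 control libraries (blue). Points are libraries, lines are group means and bands are 1 SD on either side (n = 3). For 6 genes the highest point is control a, and for Neurog1 and Neurog2 it is cKO b, and the groups overlap in every panel.

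Neurog1 (ENSMUSG00000048904, chromosome 13 of GRCm38, 56250478 to 56252163, minus strand) encodes neurogenin 1, a determination factor of sensory and dorsal neurons. It had 8.43, 31.7 and 21.6 normalized counts in cKO libraries a, b and c and 27.4, 11.5 and 5.40 in control libraries a, b and c. Both groups ran from under 10 to nearly 30 or above and overlapped throughout. By count and per length it was the scarcest of the 8 genes, with only 5 to 31 reads per library. Group means were 20.6 ± 11.7 and 14.8 ± 11.4 (SD, n = 3), a log2 difference of 0.47 with a standard error of 0.65 and a 95% interval from -0.94 to 1.89. This interval spans 0.520 to 3.71 times the control level.

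Neurog2 (ENSMUSG00000027967, chromosome 3, 127633135 to 127635631, plus strand) encodes neurogenin 2, the neurogenin of ventral midbrain progenitors. Its normalized counts were 594, 1403 and 733 in cKO libraries a, b and c and 839, 787 and 811 in the controls. The 3 controls were nearly equal, and cKO b stood far above the other 5 libraries. Means were 910 ± 433 in the cKO and 812 ± 26.0 in the control (log2 difference 0.05, standard error 0.23, 95% interval -0.46 to 0.55, exact permutation p = 1). The highest library was 2.36 times the lowest. Among the 2875 genes with a mean within 1.5-fold of that of Neurog2, the median of this ratio was 1.21 and only 0.383% had a larger one. Without cKO b, the sign turned and Neurog2 was lower in the cKO, at -0.31 on the log2 scale (standard error 0.11), with an unadjusted p-value under 0.05. In that fit 3.02% of all genes passed this threshold. With control a left out as well, a fit added later, Neurog2 was at -0.28 and was the 1 gene of the 8 to pass, beside 3.78% of all genes. Its lowest adjusted limma p in any fit was 0.987.

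Neurod1 (ENSMUSG00000034701, chromosome 2, 79452521 to 79456751, minus strand) drives the differentiation of newborn neurons. It had 637, 731 and 778 normalized counts in cKO libraries a, b and c and 1051, 594 and 759 in the controls. Control a was the highest and control b the lowest, so the control range enclosed all 3 cKO libraries. Means were 715 ± 71.9 and 801 ± 232 (log2 difference -0.15, standard error 0.17, 95% interval -0.52 to 0.23). Without control b the difference was -0.35, with an unadjusted p-value under 0.05, as for 3.5% of all genes in that fit. Without control a it was 0.089, with the opposite sign. The exons of Neurod1 overlap those of Cerkl on the same strand and of Gm26755 on the opposite strand, so a share of its reads is uncertain.

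Neurod2 (ENSMUSG00000038255, chromosome 11, 98325415 to 98329648, minus strand) acts in maturing neurons. It had 255, 352 and 316 normalized counts in cKO libraries a, b and c and 548, 309 and 314 in the controls. Control a was again far above the rest, and the other 5 libraries lay close together. Of the 8 genes, Neurod2 had the lowest log2 difference, -0.33 (standard error 0.22, 95% interval -0.81 to 0.14, exact permutation p = 0.6). Without control a it was -0.04.

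Neurod4 (ENSMUSG00000048015, chromosome 10, 130268152 to 130280240, minus strand) is switched on for a short time in newborn neurons. It was scarce, with 42.2, 81.4 and 34.6 normalized counts in cKO libraries a, b and c and 97.3, 45.1 and 29.2 in the controls. In each genotype 1 library, cKO b and control a, was high, and the other 4 were low. The log2 difference of -0.09 (standard error 0.45) had a 95% interval from -1.07 to 0.88, which spans 0.477 to 1.84 times the control level.

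Neurod6 (ENSMUSG00000037984, chromosome 6, 55677822 to 55681263, minus strand), the NeuroD gene of a dopamine neuron subset, had 578, 632 and 708 normalized counts in cKO libraries a, b and c and 780, 499.5 and 611 in the controls. The cKO libraries lay inside the control range. Means were 639 ± 65.2 and 630.4 ± 141 (log2 difference 0.03, standard error 0.15, 95% interval -0.30 to 0.35). Neurod6 transcripts of Pitx3 cells and of other cells cannot be told apart in these libraries.

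Nhlh1 (ENSMUSG00000051251, chromosome 1, 172052292 to 172057573, minus strand) and Nhlh2 (ENSMUSG00000048540, chromosome 3, 102010076 to 102015492, plus strand) encode small bHLH proteins found in newborn and young neurons. Nhlh1 had 305, 423 and 428 normalized counts in cKO libraries a, b and c and 572, 340.1 and 286 in the controls. Control a was the highest and control c the lowest. Nhlh2 had the most reads of the 8 genes, with 2222, 2902 and 2746 normalized counts in cKO libraries a, b and c and 3078, 2162 and 2491 in the controls. Its control range enclosed the cKO libraries. The log2 difference was -0.04 for Nhlh1 (standard error 0.23, 95% interval -0.54 to 0.45) and 0.02 for Nhlh2 (standard error 0.12, 95% interval -0.25 to 0.29). The interval of Nhlh2 was the narrowest of the 8, and its bounds correspond to 0.843 and 1.22 times the control level.

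**Figure D2:**
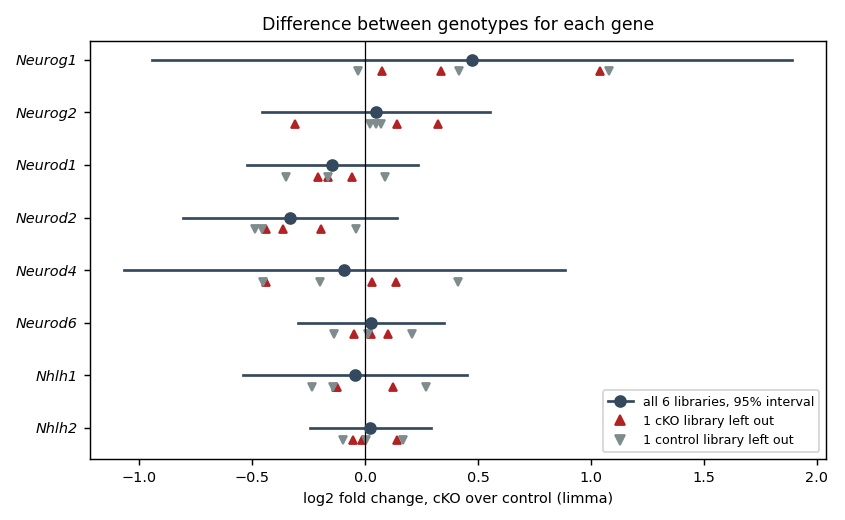
Log2 fold change of each neurogenic bHLH gene, cKO over control, in limma (horizontal axis), with all 6 libraries (circle, line for the 95% interval) and with 1 cKO library (upward triangles) or 1 control library (downward triangles) left out. All 8 intervals include 0, and triangles lie on both sides of 0 for every gene but Neurod2.

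The bHLH genes tended to be high and low in the same libraries, and each genotype held both kinds. On a log2 scale, control a was above a gene's own mean for 8 of 8 genes (51.2% of all genes) and the highest library for 6 of 8 (18.7% of all genes), with a median deviation of 0.54. Library cKO a was below the mean for all 8, with a median deviation of -0.28, and the lowest library for 2. Control b was likewise below the mean for all 8 (-0.21) and the lowest for 3. Control c was below it for 7 of 8 (-0.079) and the lowest for 3. Library cKO b was above the mean for 7 of 8 (0.16) and the highest for Neurog1 and Neurog2, and cKO c was above it for 5 of 8 (0.076). Over all genes, each library was above the mean for 50.6% to 51.4% of genes. The summed normalized count of the 8 genes was 4642, 6555 and 5765 in cKO libraries a, b and c and 6993, 4748 and 5307 in the controls. Control a and cKO b were the highest by this sum, and cKO a and control b the lowest.

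By their sums, genes of progenitors and of dividing cells were arranged alike. The 10 recovered genes of the neural progenitor list ordered the 6 libraries as the 8 bHLH genes did, with summed normalized counts of 22483, 26569 and 26211 in the cKO and 26999, 25199 and 25964 in the controls. Gene by gene, 5 of these 10 were highest in cKO b and 3 in control a. The sums of the E proteins and of the cascade targets were likewise highest in control a and lowest in cKO a. The list of cycling cell genes (Mki67, Top2a, Ccnb1, Ccna2, Cdk1, Pcna, Mcm2, Mcm5, Aurkb and Birc5) summed to 5439, 7012 and 6695 normalized counts in the cKO and to 8303, 5286 and 6041 in the controls. All 10 of these genes were highest in control a. The order of the 6 libraries by this sum was the order by the bHLH sum, except that the lowest 2, cKO a and control b, changed places. None of the 10 reached the unadjusted threshold between genotypes, and their median log2 difference was -0.05. The level of the cycling genes was then added to the model, a choice made after this likeness in order had been seen. With that term, 0 of the 8 genes reached the unadjusted threshold of 0.05, beside 3.87% of all genes. The standard errors of the 8 genes were a median of 0.658 times those without the term, against 0.966 over all genes tested. Neurod2 was then at -0.25 (standard error 0.12). The part of cell division, embryo stage, embryo sex or dissection in the spread between the libraries was not tested.

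**Figure D3:**
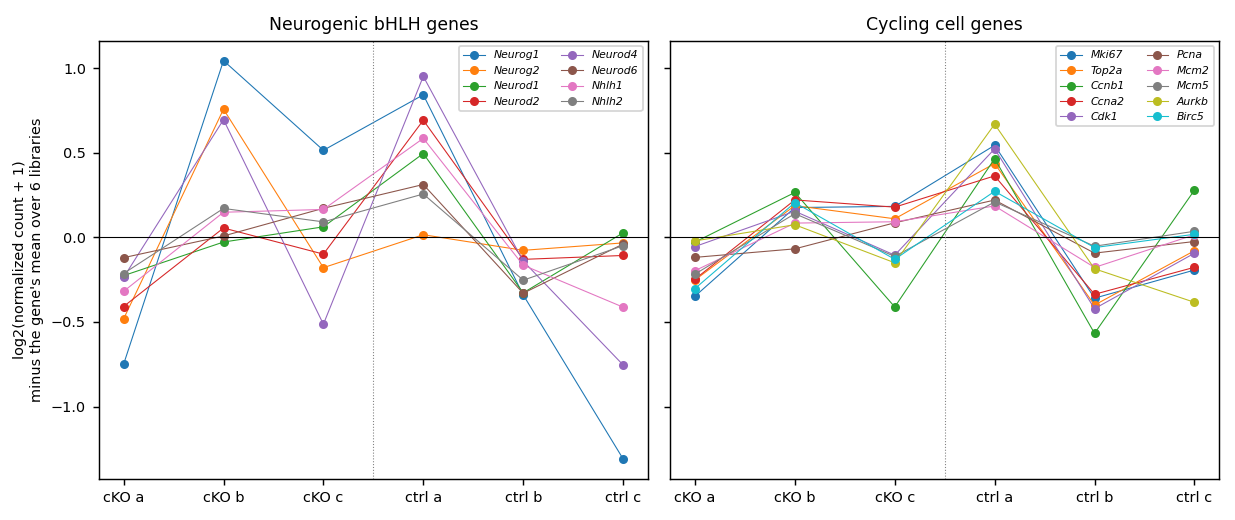
Deviation of each gene from its own mean over the 6 libraries (vertical axis, log2 of the normalized count plus 1) by library, for the 8 neurogenic bHLH genes (left) and the 10 cycling cell genes (right), with a dotted line between genotypes. Control a is above 0 for all genes of both panels, and cKO a and control b are below 0 for all 8 bHLH genes.

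The high Neurog2 count of cKO b came with high counts of forebrain genes, and of genes of other lists, in that library. Of the 10 genes of the cortex and forebrain list, 7 were highest in cKO b (16.5% of all genes), which summed to 9039 normalized counts against 7057 and 7694 in the other cKO libraries and 6385 to 7060 in the controls. The hindbrain and cerebellum list summed to 9416 in cKO b and to 4366 to 7745 elsewhere. Most of that spread was of 1 gene, Zic1, with 5579 in cKO b and 1237 to 4008 elsewhere. The blood list summed to 11468 in cKO b and 7182 to 10414 elsewhere. Of the 22 lists, 9 had their highest sum in cKO b. Of the genes of the neurogenic cascade, Eomes, made in intermediate progenitors, had 89.0, 189 and 72.5 in the cKO and 98.2, 53.8 and 69.1 in the controls. Tbr1, a gene of young cortical neurons and other glutamatergic neurons, had 108, 336 and 30.3 in the cKO and 158, 32.7 and 9.72 in the controls. Both were highest in cKO b by a wide margin. The young neuron list was not high there, with 0 of 8 recovered genes highest in cKO b. Olig3, a bHLH gene of dorsal progenitors, had 39.3, 181 and 15.2 normalized counts in the cKO and 43.4, 27.9 and 20.5 in the controls. Eomes, Tbr1 and Olig3 were picked after their values were seen, and the exons of Eomes overlap those of Gm33460 on the opposite strand. The part of forebrain or other tissue in the Neurog2 count of cKO b was not tested.

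**Figure D4:**
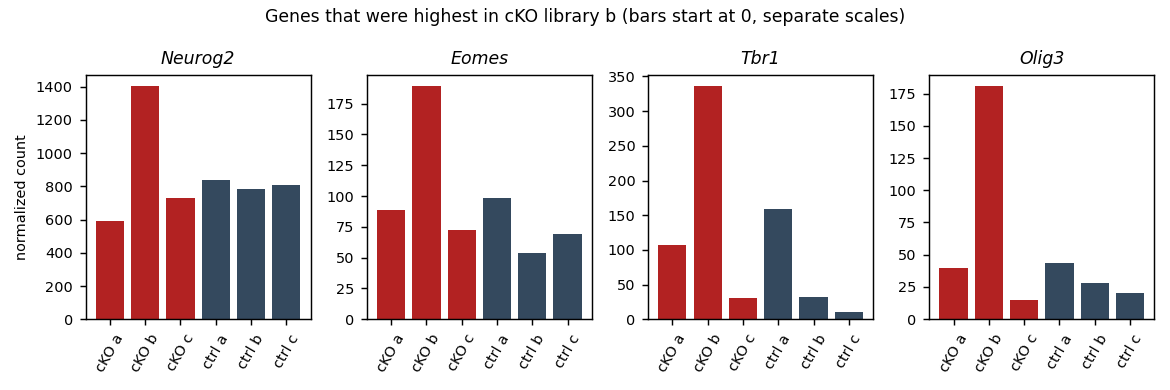
Normalized count (bars from 0, separate scales) of Neurog2, Eomes, Tbr1 and Olig3 in the 3 cKO libraries (red) and the 3 control libraries (blue), 1 bar for each library. All 4 genes are highest in cKO b, where Neurog2 reached 1403 and Tbr1 336 normalized counts.

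Of 16 other bHLH genes counted as a list, which holds activators, repressors and the mesoderm gene Msgn1, 6 were highest in control a, 7 in another control and 3 in a cKO library. Their summed count in control a, 7869, was below that of controls b and c (8063 and 8163). The cKO sums, 7262, 7410 and 7146, were all below the control sums. Atoh1, the determination gene of cerebellar granule neurons and other rhombic lip derivatives, was at 0 in cKO libraries a, b and c and at 74.3, 0 and 2.16 in the controls. Nearly all of its reads were in control a. Tal2, needed for midbrain GABAergic neurons, had 355, 370 and 392 in the cKO and 762, 357 and 225 in the controls. Atoh1 and Tal2 were picked after their values were seen as well.

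Compared per length, as normalized counts per kilobase of exon over the 6 libraries, the 8 genes spanned a wide range of levels. Nhlh2 led with 480 ± 68.4 (SD, n = 6), followed by Neurog2 with 387 ± 125, Neurod6 with 295 ± 45.9 and Neurod1 with 278 ± 58.8. Nhlh1 followed with 159 ± 43.0 and Neurod2 with 111 ± 32.5, and far below them came Neurod4 with 16.4 ± 8.27 and Neurog1 with 10.5 ± 6.40. Neighbours in this order overlapped in their ranges over the 6 libraries, except Neurod2 (81.1 to 174) and Neurod4 (8.72 to 29.1). Within the same library, Neurod1 was above Nhlh1, Nhlh1 above Neurod2 and Neurod2 above Neurod4 in 6 of 6 libraries. Nhlh2 was above Neurog2, Neurod6 above Neurod1 and Neurod4 above Neurog1 in 5 of 6, and Neurog2 above Neurod6 in 4 of 6, so these neighbours changed places between libraries. With the longest transcript as length, Nhlh2 was above Neurog2 in 6 of 6.

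**Figure D5:**
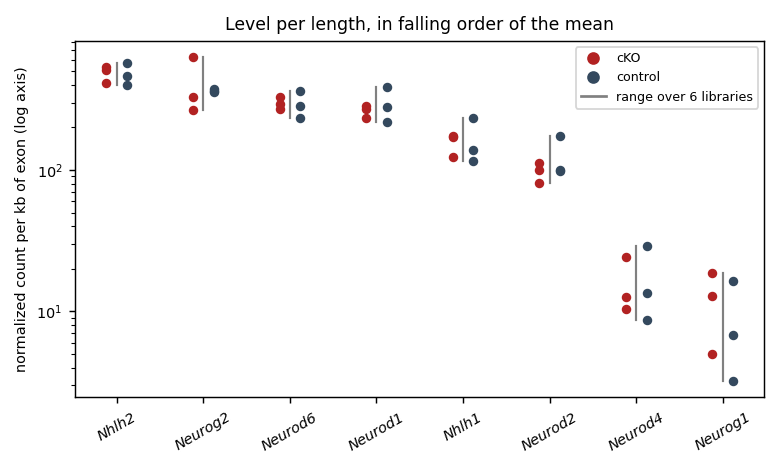
Level of each neurogenic bHLH gene in normalized counts per kilobase of exon (vertical log axis), in falling order of the mean, with 1 point for each cKO (red) and control (blue) library and a line for the range over the 6 libraries. The lowest library of Neurod2, at 81.1, lies above the highest of Neurod4, at 29.1.

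The partners, inhibitors and targets of the 8 genes were counted as fixed lists, in which 0 genes had an adjusted p-value under 0.05. Among 11 tested genes of the list of other bHLH genes, 10 were lower and 1 higher in the cKO, beside 50% of all genes lower. Their median log2 difference was -0.21. At an unadjusted p-value under 0.05, 2 of the 11 were lower and 0 higher, beside 1.61% of all genes lower and 1.18% higher. These were Bhlhe22 (log2 difference -0.27, standard error 0.10) and Bhlhe23 (-0.29, standard error 0.11), bHLH repressors of differentiating neurons (adjusted p = 1.00 for both). Bhlhe22 had 601, 680.5 and 662 normalized counts in the cKO and 822, 698 and 823 in the controls. Bhlhe23 had 307, 323 and 320.4 in the cKO and 372.5, 419 and 369 in the controls, and its exons overlap Gm14343. For both, all cKO libraries lay below all controls, where 7.67% of all genes did not overlap. Bhlhe22 kept an unadjusted p-value under 0.05 in 3 of 6 fits without 1 library, and Bhlhe23 in 4 of 6. Both were lost without cKO a, Bhlhe22 also without control a or control c, and Bhlhe23 without control b.

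The E proteins Tcf3, Tcf4 and Tcf12, the dimer partners, had log2 differences of -0.14, -0.07 and -0.06, with 0 of 3 at an unadjusted p-value under 0.05. All 3 were highest in control a, as were most of the 8 bHLH genes. Of the 4 Id genes, 3 were lower in the cKO, with a median of -0.21. Id3 had 409, 550.5 and 420.0 normalized counts in the cKO and 646, 526 and 509 in the controls, and the groups overlapped. Its log2 difference was -0.30 (standard error 0.14), past the unadjusted threshold, which it missed in limma-trend and in 3 of 6 fits without 1 library (cKO a, cKO c or control a).

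The most abundant genes of these lists by normalized count were Tal1 (-0.07 on the log2 scale), Tcf4, Id4 (0.12), Hes6 (-0.04), Rfng (-0.03) and Dcx, all without an unadjusted p-value under 0.05 where tested.

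In the Notch pathway, 9 of 12 ligands, fringes and receptors were lower in the cKO, with a median log2 difference of -0.03. The ligands Dll1 and Dll3, direct targets of proneural factors, had differences of 0.01 and 0.10. Of the 12, Lfng alone passed the unadjusted threshold. Lfng encodes lunatic fringe, which adds sugars to Notch and so alters its response to ligands. It had 586, 706 and 711 normalized counts in the cKO and 824, 833 and 832 in the controls. All cKO libraries lay below the nearly equal controls. Notch3 did not overlap between the groups either, nor did 7.67% of all genes. The log2 difference of Lfng was -0.33 (standard error 0.09, adjusted p = 1.00), and its unadjusted p-value stayed under 0.05 in 6 of 6 fits without 1 library.

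Of the Hes and Hey repressors, several of which act below Notch, 8 of 10 tested genes were lower in the cKO, with a median of -0.09. Hes5, the main Notch target of neural progenitors, had 566, 826 and 587 normalized counts in the cKO and 836, 727 and 886 in the controls. Only cKO b lay within the control range. Hes5 alone passed the unadjusted threshold, with a log2 difference of -0.33 (standard error 0.13), and its exons overlap Gm20421 on the opposite strand. It passed in 2 of 6 fits without 1 library, and not without cKO a, cKO c, control a or control c. Targets and co-factors of the cascade were split, with 9 of 24 tested genes lower and 15 higher, and a median of 0.02. Here 12 of the 24 were highest in cKO b and 7 in control a. Rnd3, a small GTPase that proneural factors induce in migrating neurons, had 5707, 8378 and 6280 normalized counts in the cKO and 9648, 7292 and 8126 in the controls. It was the only tested target past the unadjusted threshold (log2 difference -0.32, standard error 0.13), and its groups overlapped. It passed in 3 of 6 fits without 1 library, and not without cKO a, cKO c or control a. The other 8 listed targets (Sox4, Sox11, Dcx, Elavl2, Elavl3, Elavl4, Myt1l and Ebf3) were too abundant for the recovery of single libraries. Their ratios of the authors' means, cKO over control, ran from 0.948 for Ebf3 to 1.04 for Sox11.

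Lists of cell types gave the setting of these values, to be read beside the 2.79% of all genes past the unadjusted threshold. Of 10 tested neural progenitor genes 7 were lower in the cKO, among them the glutamate transporter Slc1a3 (-0.21), past the unadjusted threshold. Of 8 tested young neuron genes 5 were higher, among them Slc17a6, the glutamate transporter of excitatory neurons (0.13), past it too. Of 12 dopamine neuron genes 10 were lower, and 4 of these, Pitx3, Ddc, En1 and En2, passed the unadjusted threshold, as did Aldh1a1 in the higher direction. Of the 12, 6 did not overlap between the groups (En1, En2, Aldh1a1, Pitx3, Ddc and Nr4a2), beside 7.67% of all genes. En1 (-0.40), En2 (-0.46) and Aldh1a1 (0.92) passed in 6 of 6 fits without 1 library. Pitx3 passed in 2 of 6, and not without cKO a or any 1 control. Ddc also passed in 2 of 6, and not without control c or any 1 cKO library. Slc1a3 (3 of 6) did not pass without cKO a, control a or control c, and Slc17a6 (4 of 6) not without cKO a or control c. In the midbrain list Sim1 (0.45), and in the forebrain list Emx2 (0.21), Fezf2 (1.06) and Dlx1 (0.37), passed it and were higher in the cKO. Sim1 passed in 6 of 6 fits without 1 library. Emx2 (3 of 6) did not pass without cKO c, control b or control c, Fezf2 (4 of 6) not without cKO b or control b, and Dlx1 (4 of 6) not without cKO b or control c. Pitx3, Emx2 and Dlx1 overlap opposite-strand genes. Mesenchyme and bone genes summed to 14165 normalized counts in cKO c, to 2363 in cKO a and to 742 to 865 in the other 4 libraries. Col1a1, a collagen gene of bone and mesenchyme, had 532 in cKO a and 10.6 to 14.8 in those 4, and all 10 genes of the list were highest in cKO c, where none of the 8 bHLH genes was. The lists of sensory ganglia (Prph, Tlx3, lower), mesenchyme (Col3a1) and blood (Hba-a1, both higher) held further genes past the threshold (in 6, 2, 3 and 3 of 6 fits without 1 library), and 1 of 3 tested genes of the pituitary list passed it. Tlx3 did not pass without cKO a, cKO c, control a or control b, Col3a1 not without any 1 control, and Hba-a1 not without cKO b, cKO c or control a. The lists of cycling cells, hindbrain and cerebellum, retina and pineal, vessels, microglia, oligodendrocyte precursors and choroid plexus held none. Among all 178 tested genes of the 22 lists, 22 passed the unadjusted threshold and 0 the adjusted one.

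The genes whose library profile lay closest to each bHLH gene were named by a fixed measure, the root mean square difference of the centred log2 profiles over 6 libraries, among 12442 genes. Neurog1, with a mean under 50, was left out. Closest to Neurog2 were Prokr2 (0.160) and Nr2e1 (0.169), a nuclear receptor of forebrain progenitors. Nr2e1 had 147, 373 and 190 normalized counts in the cKO and 227, 215 and 158 in the controls, with the same high library, cKO b. Closest to Neurod1 were P2rx7 (0.0567) and Aspm (0.0568), a spindle gene of dividing progenitors. Closest to Neurod2 were the repressor Hes1 (0.0779) and the mitotic kinesin Kif2c (0.0918). Hes1 had 183, 268 and 210.0 normalized counts in the cKO and 353, 212 and 220.3 in the controls, with the same high library, control a. For Neurod4 the closest was Dmbx1 (0.245), a homeobox gene of the early brain. For Neurod6 the closest were E2f5 (0.0475) and Gm15163 (0.0517), and for Nhlh1 Cecr2 (0.0848) and Robo3 (0.106), a receptor of commissural axons. For Nhlh2 they were Lhx1os (0.0375) and the cyclin gene Ccnd2 (0.0407). These distances were smallest for Nhlh2 and largest for Neurod4, but they grow with a gene's own spread. The root mean square deviation of a gene from its own mean was 0.189 for Nhlh2, 0.375 for Neurog2 and 0.619 for Neurod4. The distances therefore do not rank the 7 genes by likeness. The likeness is a description over 6 libraries, without a test.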

How the data were processed

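Midbrain RNA of 3 Lmx1b cKO and 3 control pools was sequenced as read pairs. The submitters' processing notes name TopHat 1.0.14, Bowtie2 2.1.0, HTSeq 0.6.1p1, DESeq 1.10.1 and GRCm38.p4, whereas the paper's methods name DESeq2, a separate program. The use of strand in counting is not given in the sources used here. The authors deposited mean signal per genotype (counts divided by size factors), ratios and p-values. Their ratio and p-value columns were not used. Rows that name no gene (3, with 31.8% of mean counts) were left out.

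Reads per library were recovered as the whole numbers that give both printed means, searched up to 30000 reads per group. Abundant genes beyond that limit have only the authors' means. Tested on simulated data with known counts, the search recovered 19152 of 19152 means (cKO) and 18963 of 18963 (control) exactly. It gave an answer for 0 of 1000 decoys per genotype. The simulated means and the decoys covered only low counts, far under 30000 reads per group. Nhlh2, Neurog2 and, in the controls, Neurod1 had more reads than the genes simulated, so this check does not cover them. The 16680 genes with a mean of at least 10 were tested by limma 3.58.1 (R 4.3.3) with voom weights and Benjamini-Hochberg adjustment, and single genes by exact permutation. The use of limma on recovered counts, in place of a count model, follows from the deposited unit. Positions and lengths came from GENCODE for 26703 of 26852 genes, and symbols for 26693. Other steps ran in Python 3.11.15 (matplotlib 3.10.9, numba 0.67.0, numpy 2.4.6, pandas 2.3.3, scipy 1.17.1).

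The 8 genes, the 22 lists and the tests were chosen with earlier results of these data known. Named besides the 8 genes are list genes with an unadjusted p-value under 0.05, the most abundant gene of each list of partners, inhibitors or targets, the nearest profiles, and others picked after their values were seen. Some genes that this rule names are not reported here. Alternatives were limma-trend with pseudocounts of 1 and 10, recomputed and upper quartile scaling, minimum means of 50 or none, the longest transcript as length, the deposited means, and each library left out.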

Additional observations from a re-analysis of the deposited data

How the results depend on the processing

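No paired analysis was possible because the recovered libraries cannot be tied to a replicate number. In every fit run, 0 of the 8 bHLH genes passed the adjusted threshold, and their lowest adjusted p-value was 0.978. At an unadjusted p-value under 0.05 this number was 0, ranged from 0 to 1 with each library left out (1 without cKO b, Neurog2, and 1 without control b, Neurod1), and was 1 with control a and cKO b both left out, a fit added after the data had been seen. Over all genes, adjusted calls ranged from 0 to 3 with each library left out. Without control a these were Kdm5d (-0.92), Uty (-0.95) and Ddx3y (-0.82), genes of the Y chromosome, all lower in the cKO. Embryo sex was not a term in any fit. Adjusted calls were 1 with control a and cKO b left out (Kdm5d) and 1 with the cycling gene level added (Aldh1a1). Unadjusted calls over all genes were 466, 971 without a minimum mean (more genes tested) and 338 to 639 with each library left out.

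With each library left out, the log2 difference ran from -0.033 to 1.08 for Neurog1, -0.31 to 0.32 for Neurog2, -0.35 to 0.089 for Neurod1, -0.49 to -0.04 for Neurod2, -0.45 to 0.41 for Neurod4, -0.14 to 0.21 for Neurod6, -0.24 to 0.27 for Nhlh1 and -0.10 to 0.17 for Nhlh2. In 13 of these 48 fits the sign was the opposite of that with 6 libraries. With control a and cKO b both left out, the sign turned for Neurog2 (-0.28), Neurod1 (0.069), Neurod4 (0.066) and Nhlh1 (0.19). With the cycling gene level added it turned for Neurod4 (0.10) and Nhlh1 (0.040). The cause was not tested. In the other 55 fits or ratios of the 8 genes (weights, pseudocount, scaling, minimum mean, deposited means) no sign turned. The longest transcript in place of all exons moved the level of Nhlh2 from 480 to 659 per kilobase. List counts moved by over 1.5 times in 46 of 132 fits with a library left out. Neurog1 rests on as few as 5 reads in a library.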
